A study of Mus musculus with 12 samples.

Results

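The mitochondrial ATP synthase genes described here are 10 nuclear genes of cardiomyocytes: Atp5a1, Atp5b, Atp5c1, Atp5d, Atp5e, Atp5h, Atp5j2, Atp5k, Atp5l and Atp5o, under their older symbols. They were taken by name from the 55335 genes of the count files, and all 10 passed the filter on low counts that kept 16932 genes for testing. The set was chosen by the level of Atp5k, which was high in WT_CD, the group labelled as chow-fed C57BL/6J mice. The values of Atp5k against WT_CD are therefore given as a description, with no test. RNA came from cardiomyocytes of male mice aged 7 to 8 weeks when the diets began, fed for 7 weeks. The 4 groups are named here by their labels. Mice of the ApoE knockout strain B6.129P2-Apoe tm1Unc/J had a Western-type high fat diet (ApoeKO_HFD) or standard chow (ApoeKO_CD). C57BL/6J mice had the same high fat diet (WT_HFD) or chow (WT_CD). The knockout allele is carried in all tissues and not by cardiomyocytes alone. The series is about diet-driven stress of the heart in which the ejection fraction is preserved. Each group had 3 libraries, but WT_HFD replicate 3 was left out, which leaves 11.

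ATP synthase, also called complex V, sits in the inner mitochondrial membrane and uses the proton gradient built by the respiratory chain to make ATP. Its F1 head in the matrix holds the catalytic subunits, a central stalk turns inside that head, a peripheral stalk holds the head still, and a membrane part carries the proton channel. Small membrane subunits, among them e and g, join pairs of complexes into dimers at the ridges of the cristae, the folds of the inner membrane. The beating heart relies on this enzyme for most of its ATP.

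Atp5k, which encodes subunit e, lies on the minus strand of chromosome 5 (GRCm38, 108433244 to 108434448). Its coding transcript Atp5k-201 has 371 bases in 4 exons and encodes 71 amino acids. The second annotated coding transcript, Atp5k-202, has 272 bases and lacks the third of those exons. The counts are per gene and do not separate these transcripts. The coding sequence of Atp5k-201 from the GENCODE transcripts is shown because Atp5k is the gene whose level stands apart below. Capitals mark the start and stop codons.

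Atp5k-201 coding sequence (chr5:108433312-108434361, minus strand, introns removed): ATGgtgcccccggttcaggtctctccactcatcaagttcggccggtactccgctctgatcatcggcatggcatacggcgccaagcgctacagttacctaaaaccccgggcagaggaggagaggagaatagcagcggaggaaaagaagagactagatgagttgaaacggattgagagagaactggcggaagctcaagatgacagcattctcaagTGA

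Sequence upstream of the start site was available for 9 of the 10 genes in the RefSeq promoter table (GRCm38.p6). The 210 bases from 250 to 41 before the RefSeq start are shown for Atp5k, for Atp5o and Atp5e, the members with the next most negative log2 fold changes against WT_CD, and for Atp5l, which encodes the partner subunit g. Capitals mark matches, on either strand, to the NRF-1 core CGCATGCG, the ETS core CCGGAAG, the GC box GGGCGG and the CCAAT box. NRF-1 is a transcription factor known for its sites at nuclear genes of the respiratory chain.

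Atp5k (chr5:108434440-108434649, minus strand): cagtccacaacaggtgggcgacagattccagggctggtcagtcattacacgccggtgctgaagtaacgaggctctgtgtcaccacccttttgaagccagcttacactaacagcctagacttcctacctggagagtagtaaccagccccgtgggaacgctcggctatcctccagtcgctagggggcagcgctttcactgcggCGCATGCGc
Atp5o (chr16:91931671-91931880, minus strand): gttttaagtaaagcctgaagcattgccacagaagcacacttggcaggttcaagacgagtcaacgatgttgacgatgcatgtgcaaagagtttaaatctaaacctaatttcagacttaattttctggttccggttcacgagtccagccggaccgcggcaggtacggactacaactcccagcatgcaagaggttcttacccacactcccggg
Atp5e (chr2:174464142-174464351, minus strand): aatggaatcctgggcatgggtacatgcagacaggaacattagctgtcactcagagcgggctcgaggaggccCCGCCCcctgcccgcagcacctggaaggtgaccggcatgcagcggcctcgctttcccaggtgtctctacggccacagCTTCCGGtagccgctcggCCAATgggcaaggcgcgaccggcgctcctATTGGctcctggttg
Atp5l (chr9:44920783-44920992, minus strand): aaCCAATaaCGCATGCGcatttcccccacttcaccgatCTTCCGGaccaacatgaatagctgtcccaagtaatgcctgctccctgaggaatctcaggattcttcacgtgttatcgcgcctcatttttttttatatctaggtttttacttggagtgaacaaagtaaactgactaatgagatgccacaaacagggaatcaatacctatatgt

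The NRF-1 core occurred in 1.06% of all 32851 promoter windows of this length, and among the 9 genes it was found in Atp5k, starting 49 bases before the start site, and in Atp5l, starting 241 bases before it. The last bases of the Atp5k window, which hold this match, lie within the first exon of the GENCODE transcript. The ETS core, present in 4.49% of windows, occurred in Atp5e and Atp5l. The GC box was in 26.7% of windows and occurred in Atp5e and Atp5b. The CCAAT box was in 29.9% of windows and occurred in Atp5b, Atp5c1, Atp5e, Atp5h, Atp5j2 and Atp5l. Atp5o, whose level followed that of Atp5k most closely among the members, had none of the 4 motifs in this window, and nor did Atp5d. None of the matches shown overlaps another. A match of letters is a description of the sequence and not a binding site, and the absence of one says only that those letters are not in the window.

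The 11 libraries held 22130323 to 46424614 counts on genes, of which 51.5% to 71.3% fell on the mitochondrial genome, leaving at least 9340449 on nuclear genes. WT_HFD replicate 3 held 1347110 counts, with 23.4% of its nuclear counts on genes of the antisense class against 0.185% to 0.251% in the others. On chow the counts of Apoe, the knocked-out gene, contradicted the labels, with 8.58 to 27.2 CPM in the libraries labelled ApoeKO_CD and 2.29 to 3.45 CPM in those labelled WT_CD. On the high fat diet it had 2.22 to 3.19 CPM in libraries labelled ApoeKO_HFD and 8.16 to 17.4 CPM in those labelled WT_HFD. Directions between the chow groups are therefore those of the libraries as labelled. The comparisons of a high fat diet group with a chow group depend on the same labels. With the chow labels exchanged, WT_HFD against WT_CD and ApoeKO_HFD against ApoeKO_CD would each differ in genotype as well as diet. Over all genes, the fit of all 11 called 26, 35 and 86 genes in ApoeKO_HFD, WT_HFD and ApoeKO_CD against WT_CD. Without WT_CD replicate 2 the counts were higher, at 1304, 1019 and 1801, and without each of the other 10 libraries in turn they were 0 to 25, 4 to 32 and 37 to 99.

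Per kilobase of coding transcript, the catalytic genes stood highest. In ApoeKO_HFD, Atp5b averaged 454 ± 105 and Atp5a1 306 ± 55.4 TMM-scaled CPM per kilobase (SD, n = 3 each), followed by Atp5h at 262 ± 62.9 and Atp5c1 at 122 ± 28.9. The neighbours in that order from Atp5b to Atp5h lay within the sum of their SDs. Atp5o was lowest at 35.7 ± 5.09. Atp5k was the sixth of the 10 in ApoeKO_HFD at 76.2 ± 16.8, in WT_HFD at 76.6 ± 1.27 and in ApoeKO_CD at 70.7 ± 2.48 CPM per kilobase, next to Atp5d and Atp5j2 and not beyond their spread. In WT_CD it was the fourth at 216 ± 72.8 CPM per kilobase (n = 3), beside Atp5h at 238 ± 36.6 and above Atp5c1 at 106 ± 41.0.

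**Figure D1:**
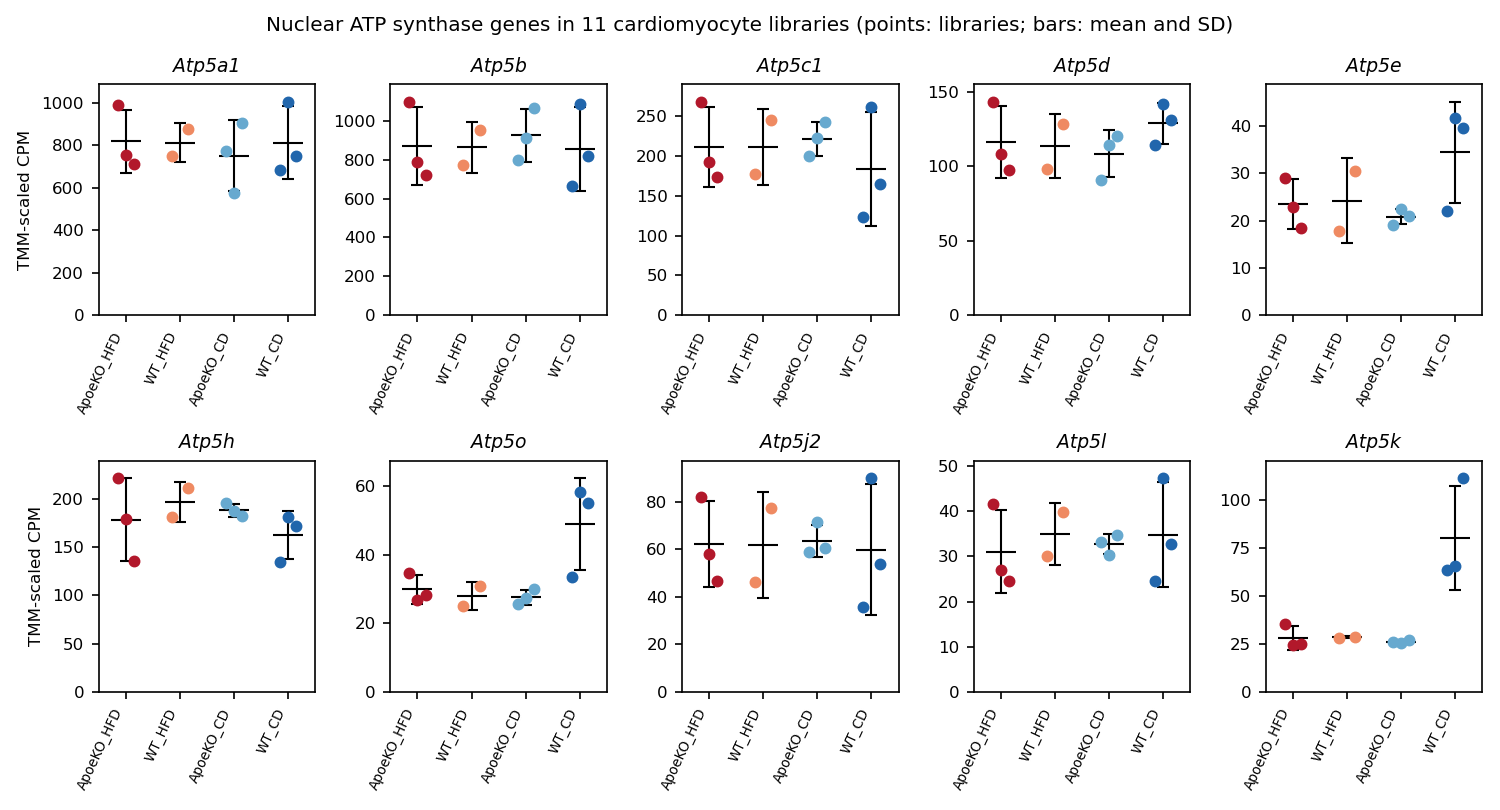
TMM-scaled CPM (y axis, linear, from 0) of the 10 ATP synthase genes in ApoeKO_HFD, WT_HFD, ApoeKO_CD and WT_CD (x axis), with 1 point per library and a bar for mean and SD. Atp5k alone has all 8 libraries of the other 3 groups (24.2 to 35.4) below all 3 WT_CD libraries (63.8 to 111).

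The values of the catalytic head genes overlapped between all groups. Atp5b, the beta subunit that carries the catalytic sites, had 723 to 1098 CPM in ApoeKO_HFD, 771 to 954 in WT_HFD, 798 to 1066 in ApoeKO_CD and 662 to 1086 in WT_CD. Atp5a1, the alpha subunit that alternates with beta around the head, had 714 to 988 CPM in ApoeKO_HFD, 749 to 877 in WT_HFD, 574 to 905 in ApoeKO_CD and 682 to 1006 in WT_CD. For both genes every pair of groups overlapped. Against WT_CD the log2 fold changes of Atp5b were 0.02 in ApoeKO_HFD, 0.01 in WT_HFD and 0.11 in ApoeKO_CD, with standard errors of 0.19 to 0.21. The lowest adjusted p among these was 0.81 by edgeR. Atp5a1 gave 0.01, 0.00 and −0.11 in the same order of groups. The ratio of Atp5a1 to Atp5b counts within a library was 0.900 to 0.988 in ApoeKO_HFD, 0.920 to 0.971 in WT_HFD, 0.632 to 0.969 in ApoeKO_CD and 0.917 to 1.03 in WT_CD. The lowest of these was ApoeKO_CD replicate 2.

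In the central stalk, the epsilon gene had its highest values in WT_CD without a call, and the gamma and delta genes had no call either in the fit of 11 libraries. Atp5c1 encodes gamma, the shaft that turns inside the head. It had 173 to 268 CPM in ApoeKO_HFD, 178 to 245 in WT_HFD, 199 to 242 in ApoeKO_CD and 123 to 262 in WT_CD, with log2 fold changes of 0.20 to 0.27 against WT_CD. Leaving out 1 library at a time gave −0.02 to 0.55 in ApoeKO_HFD, −0.02 to 0.55 in WT_HFD and 0.05 to 0.62 in ApoeKO_CD. The value of 0.62 was without WT_CD replicate 2, the highest of its group for this gene, and had an adjusted p of 0.047 by edgeR. That fit called 1801 of all genes in ApoeKO_CD against WT_CD, beside 86 with all 11 libraries, so nothing is read from this call. Over all alternatives the adjusted p in ApoeKO_CD ran from 0.047 to 1.00. Atp5d encodes delta, at the foot of the shaft, and had log2 fold changes of −0.15, −0.18 and −0.25 in ApoeKO_HFD, WT_HFD and ApoeKO_CD.

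Atp5e encodes epsilon, which binds the foot of the shaft. It had 29.1, 22.9 and 18.5 CPM in the 3 ApoeKO_HFD libraries, 17.8 and 30.5 in WT_HFD, 19.2, 22.4 and 20.9 in ApoeKO_CD, and 22.1, 41.6 and 39.5 in WT_CD. WT_CD replicates 2 and 3 were above all other libraries, while WT_CD replicate 1 lay among them. The log2 fold change was −0.55 ± 0.24 (SE) in ApoeKO_HFD, −0.51 ± 0.27 in WT_HFD and −0.72 ± 0.24 in ApoeKO_CD, with adjusted p-values of 0.31, 0.44 and 0.17 by edgeR. Without WT_CD replicate 1 the change in ApoeKO_CD was −0.96 with an adjusted p of 0.045 by edgeR, in a fit that called 99 of all genes. Over the alternatives the adjusted p ran from 0.0086, with no filter, where 475 of all genes were called, to 1.00. The count ratio of Atp5e to Atp5d was 0.190 to 0.212 in ApoeKO_HFD, 0.181 to 0.237 in WT_HFD, 0.173 to 0.212 in ApoeKO_CD and 0.193 to 0.302 in WT_CD.

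The peripheral stalk genes differed from each other. Atp5h, which encodes subunit d of the stalk, had 135 to 221 CPM in ApoeKO_HFD, 181 to 211 in WT_HFD, 182 to 195 in ApoeKO_CD and 134 to 181 in WT_CD, with log2 fold changes of 0.14, 0.27 and 0.21 against WT_CD and no call. Atp5o encodes OSCP, the cap that ties the stalk to the top of the head. It had 34.8, 26.8 and 28.1 CPM in ApoeKO_HFD, 25.0 and 30.8 in WT_HFD, 25.5, 27.4 and 29.8 in ApoeKO_CD, and 33.5, 58.1 and 55.0 in WT_CD. The WT_HFD and ApoeKO_CD libraries all lay below the 3 WT_CD libraries, as was so for 11.8% and 7.67% of all genes tested, and ApoeKO_HFD replicate 1 lay above the lowest of those.

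Atp5o was the only member other than Atp5k with a call in the fit of 11 libraries. Its log2 fold change was −0.71 ± 0.18 (SE) in ApoeKO_HFD, −0.81 ± 0.20 in WT_HFD and −0.82 ± 0.18 in ApoeKO_CD against WT_CD. The adjusted p-values were 0.11, 0.13 and 0.042 by edgeR. Atp5o was thus called lower, 1.77-fold, only in the libraries labelled ApoeKO_CD, and close to the threshold. The call was held in 7 of 20 alternatives for ApoeKO_CD, with adjusted p-values from 0.000597 to 1.00, and DESeq2 called Atp5o in all 3 comparisons. Without WT_CD replicate 3 the change in ApoeKO_CD was −0.73 with an adjusted p of 0.14 by edgeR. Within libraries, the ratio of Atp5o to Atp5h counts was 0.150 to 0.208 in ApoeKO_HFD and 0.138 to 0.146 in WT_HFD. It was 0.131 to 0.164 in ApoeKO_CD and 0.250 to 0.321 in WT_CD. This ratio also carries the levels of Atp5h, whose log2 fold changes had the opposite sign, whereas the CPM of Atp5o alone overlapped between ApoeKO_HFD and WT_CD. How many other gene pairs give such a separation was not counted. The annotation holds another Atp5o entry that overlaps the first on the same strand and is listed at 0 in every library, so reads shared by both entries may be missing from these counts.

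Of the small membrane subunits, the genes of f and g overlapped between all groups. Atp5j2, which encodes subunit f, had 46.9 to 82.2 CPM in ApoeKO_HFD, 46.1 to 77.4 in WT_HFD, 58.7 to 71.4 in ApoeKO_CD and 35.7 to 90.0 in WT_CD. Atp5l encodes subunit g, which binds subunit e directly. It had 41.5, 27.0 and 24.4 CPM in ApoeKO_HFD, 30.1 and 39.8 in WT_HFD, 33.2, 30.3 and 34.8 in ApoeKO_CD, and 24.5, 47.3 and 32.7 in WT_CD. The log2 fold changes against WT_CD were 0.05 to 0.09 for Atp5j2 and −0.17 to 0.01 for Atp5l, and none was called.

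Atp5k had 35.4, 24.2 and 25.1 CPM in the 3 ApoeKO_HFD libraries, 28.1 and 28.7 in WT_HFD, and 26.0, 25.4 and 27.2 in ApoeKO_CD, against 63.8, 65.6 and 111 in WT_CD. These values rest on 640 to 2964 counts per library. The 8 libraries outside WT_CD lay in a narrow band and all 3 WT_CD libraries lay above it, with WT_CD replicate 3 highest. No other member had this separation, which 3.13% of the genes tested showed. The means were 28.3 ± 6.22 CPM in ApoeKO_HFD (SD, n = 3), 28.4 ± 0.472 in WT_HFD (n = 2), 26.2 ± 0.920 in ApoeKO_CD (n = 3) and 80.3 ± 27.0 in WT_CD (n = 3). As a description, the log2 fold change against WT_CD was −1.50 ± 0.19 (SE) in ApoeKO_HFD, −1.50 ± 0.22 in WT_HFD and −1.61 ± 0.19 in ApoeKO_CD. Without WT_CD replicate 3 these values were −1.20, −1.19 and −1.31.

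Among the 3 groups with low Atp5k, contrasts that do not use WT_CD could be tested. The log2 fold change of Atp5k was 0.11 ± 0.19 (SE) in ApoeKO_HFD against ApoeKO_CD and −0.01 ± 0.21 in ApoeKO_HFD against WT_HFD, with adjusted p-values of 1.00 in both by edgeR. None of the 10 members was called in either contrast, where 0.0709% and 0.0472% of all genes were called. No member had an unadjusted p under 0.05 in them by edgeR, and DESeq2 and voom called 0 of the 10 as well. The 9 other members had log2 fold changes of −0.09 to 0.17 in ApoeKO_HFD against ApoeKO_CD and −0.17 to 0.10 in ApoeKO_HFD against WT_HFD.

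**Figure D2:**
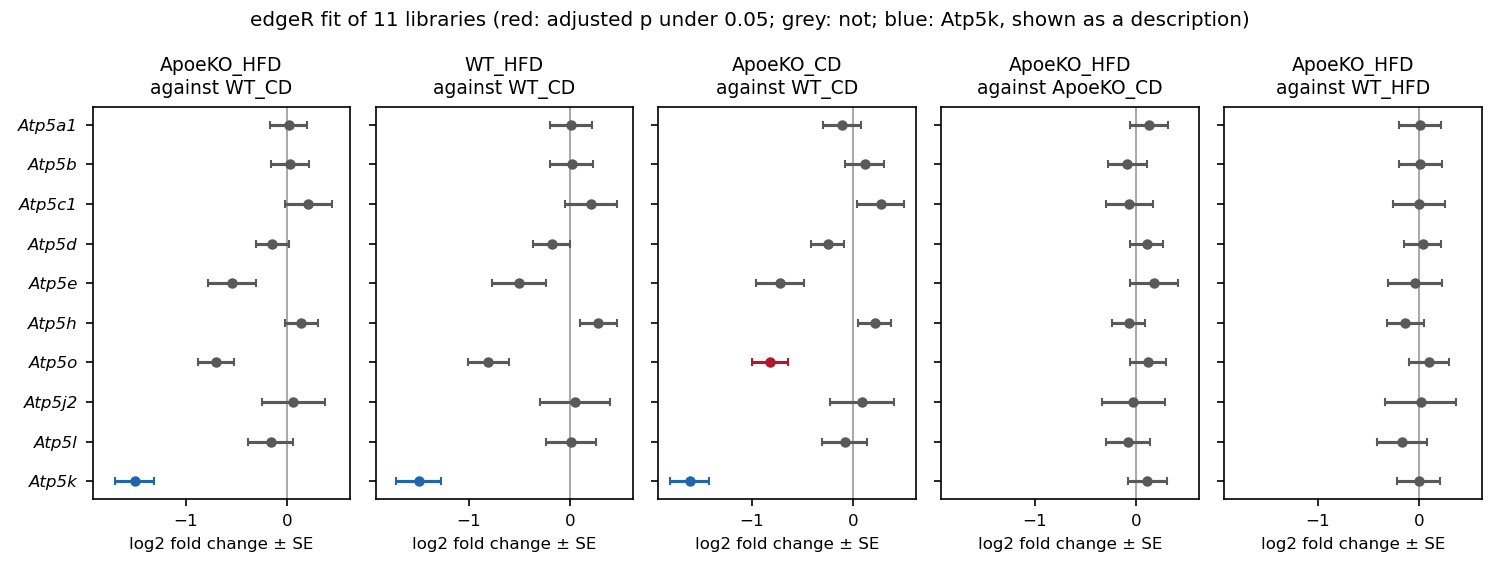
Fitted log2 fold changes with standard errors (x axis) of the 10 genes (y axis, ordered by place in the complex) in 5 comparisons of 11 libraries by edgeR. Atp5k (blue, described with no test) lies between −1.61 and −1.50 in the 3 comparisons with WT_CD, Atp5o is called in ApoeKO_CD against WT_CD (red), and all 10 lie near 0 in the 2 comparisons without WT_CD.

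Counted over the complex, 1 of the 10 members had an adjusted p under 0.05 in ApoeKO_HFD against WT_CD, where 0.154% of all genes did. In WT_HFD against WT_CD it was also 1 of 10, with 0.207% of all genes. In both the member was Atp5k, which its level in WT_CD singled out, so nothing is read from these counts. In ApoeKO_CD against WT_CD it was 2 of 10, Atp5k and Atp5o, with 0.508% of all genes. Atp5k was singled out by its level in WT_CD here too, so only the call of Atp5o is read. These 3 comparisons share the WT_CD libraries. The interaction is the effect of diet in the groups labelled as the knockout strain less that in the groups labelled C57BL/6J. It uses the WT_CD libraries too and had 1 of 10, again Atp5k, with 0.219% of all genes. Nothing is read from that count either. The sign of the interaction of Atp5k rests on the chow labels, which the Apoe counts contradict. The value was 1.61 as labelled, and the same 4 group means would give −1.62 with the chow labels exchanged. The median log2 fold change of the 10 was −0.07, 0.00 and −0.10 in ApoeKO_HFD, WT_HFD and ApoeKO_CD, beside −0.01 over all genes tested in each.

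Ratios within a library do not depend on library scaling. They use the same Atp5k counts that singled the gene out, so they are a description and not separate evidence. The order of libraries within a group was not always that of the CPM values. The log2 ratio of Atp5k counts to the mean of the other 9 members was −2.05, −2.17 and −1.94 in ApoeKO_HFD, −1.85 and −2.24 in WT_HFD, and −2.06, −2.17 and −2.18 in ApoeKO_CD, against −0.55, −1.30 and −0.19 in WT_CD. The WT_CD libraries lay apart from the rest and were spread widely, with WT_CD replicate 2 nearest to the other groups. Set against its partner subunit gene Atp5l, Atp5k had 0.854 to 1.03 counts per Atp5l count in ApoeKO_HFD, 0.722 to 0.934 in WT_HFD, 0.781 to 0.839 in ApoeKO_CD and 1.39 to 3.41 in WT_CD. Against Atp5j2 the ratio was 0.418 to 0.536 in ApoeKO_HFD, 0.371 to 0.609 in WT_HFD, 0.356 to 0.449 in ApoeKO_CD and 0.729 to 2.07 in WT_CD.

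**Figure D3:**
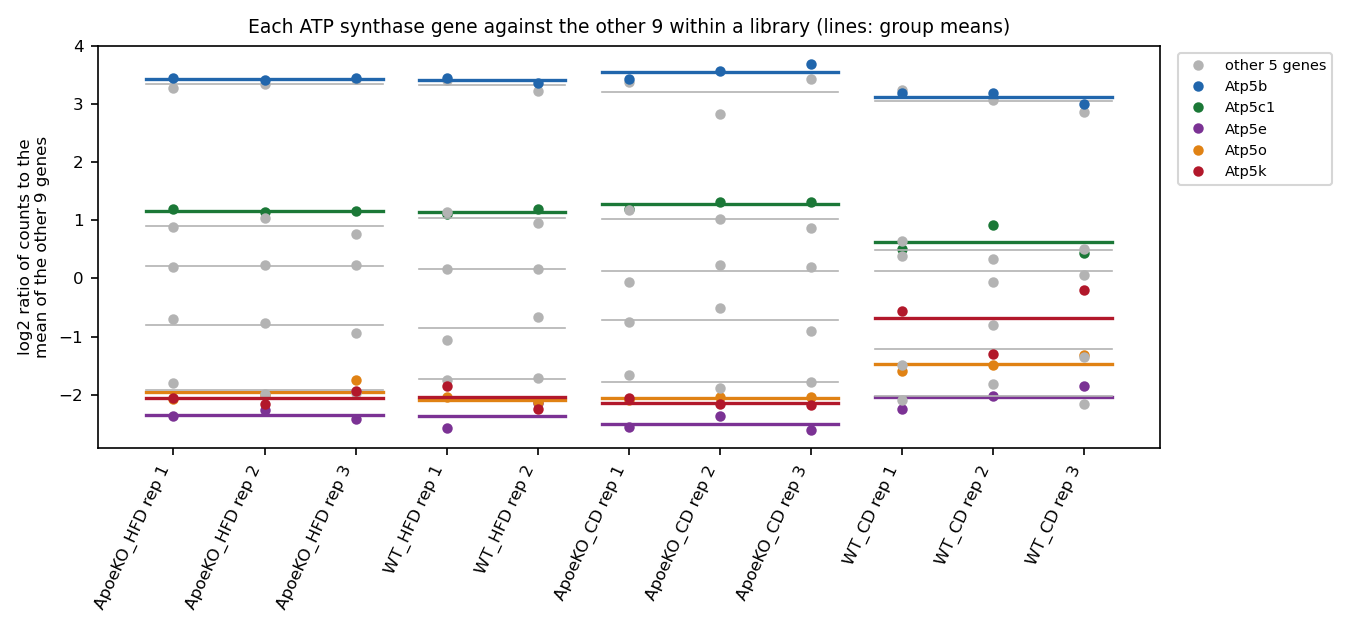
Log2 ratio of each gene's counts to the mean log2 count of the other 9 (y axis) in each of the 11 libraries (x axis), with lines at group means and 5 genes in colour. Atp5k sits at −2.24 to −1.85 outside WT_CD and at −1.30 to −0.19 in WT_CD, while Atp5c1 sits higher outside WT_CD.

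The same ratio for Atp5c1 ran the other way, at 1.17 ± 0.0213 in ApoeKO_HFD (SD, n = 3), 1.15 ± 0.0590 in WT_HFD (n = 2) and 1.28 ± 0.0649 in ApoeKO_CD (n = 3), against 0.62 ± 0.26 in WT_CD (n = 3). The ratio of each member counts the others, Atp5k among them, so a lower Atp5k raises the ratio of every other member. Within a group, members moved together. ApoeKO_HFD replicate 1 was the highest library of its group for all 10 members, WT_HFD replicate 2 for all 10, ApoeKO_CD replicate 3 for 7 and WT_CD replicate 2 for 9, whereas these libraries were highest for 37.6%, 50%, 33.8% and 36.8% of all genes tested. Each of them also had the lowest mitochondrial share of its group, at 55.4%, 64.6%, 51.5% and 57.4% of counts, and the part of that share in the levels was not tested. Atp5k was the exception in WT_CD, being highest in replicate 3, which had the highest mitochondrial share of its group at 64.4%.

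The genes most like Atp5k were ranked by the root mean square difference of centred log2 CPM over the 11 libraries, among 4808 other protein-coding genes with a mean log2 CPM of at least 3. Of the 10 nearest, 9 are given here, which in order were Ccdc124, Rpl37, D8Ertd738e, Ndufv3, Drap1, Ndufa1, Atp5o, Uqcrh and Rrs1, at differences of 0.37 to 0.43 on the log2 scale. Rpl37 encodes a ribosomal protein. Ndufv3 and Ndufa1 encode subunits of complex I, and Uqcrh a subunit of complex III. Atp5o was thus 1 of the 10, and Atp5e ranked 55 at 0.50. The other members ranked between 571 for Atp5d and 4042 for Atp5c1. Like Atp5k, the 9 were higher in WT_CD by construction of the ranking, with log2 fold changes of −0.58 (Rrs1) to −0.89 (Ndufa1) in ApoeKO_CD against WT_CD, smaller than that of Atp5k.

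**Figure D4:**
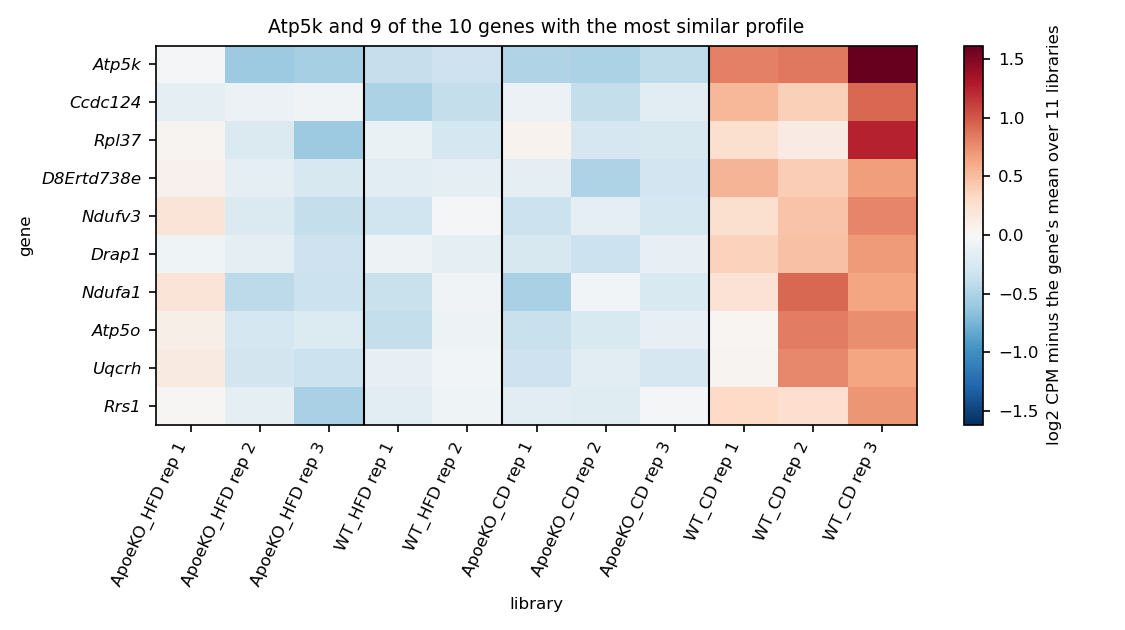
Log2 CPM minus the gene's mean over 11 libraries (colour, red above and blue below the mean) for Atp5k and 9 of the 10 genes with the most similar profile (rows) by library (columns, black lines between groups). All 10 genes shown have their red cells mainly in the 3 WT_CD libraries, and Atp5k reaches the highest value in WT_CD replicate 3.

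Atp5k and Atp5e have the shortest coding transcripts of the 10, at 371 and 421 bases, and transcript length moved with the contrasts against WT_CD. Of the protein-coding genes with a mean log2 CPM of at least 3, the 20 with a longest coding transcript under 500 bases had a median log2 fold change of −0.28 in ApoeKO_HFD, −0.25 in WT_HFD and −0.30 in ApoeKO_CD. The 3999 genes of 2000 bases or more had medians of 0.07 in each. In the next class, from 500 to under 1000 bases with 173 genes, the medians were −0.14, −0.17 and −0.17. Atp5k lay below the tenth percentile of its length class, which was −0.85, −0.89 and −0.96, and Atp5e lay above it. Atp5k was singled out by its level in WT_CD and is itself 1 of these 20 genes, so nothing is read from its place. Atp5o, at 838 bases, lay below the tenth percentile of its class (−0.51, −0.50 and −0.55), while Atp5h, Atp5j2 and Atp5l of the same class lay near or above its median. In ApoeKO_HFD against ApoeKO_CD the medians of the shortest and longest classes were 0.06 and −0.01. The part of transcript length in the values of Atp5k, Atp5e and Atp5o was not tested.

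**Figure D5:**
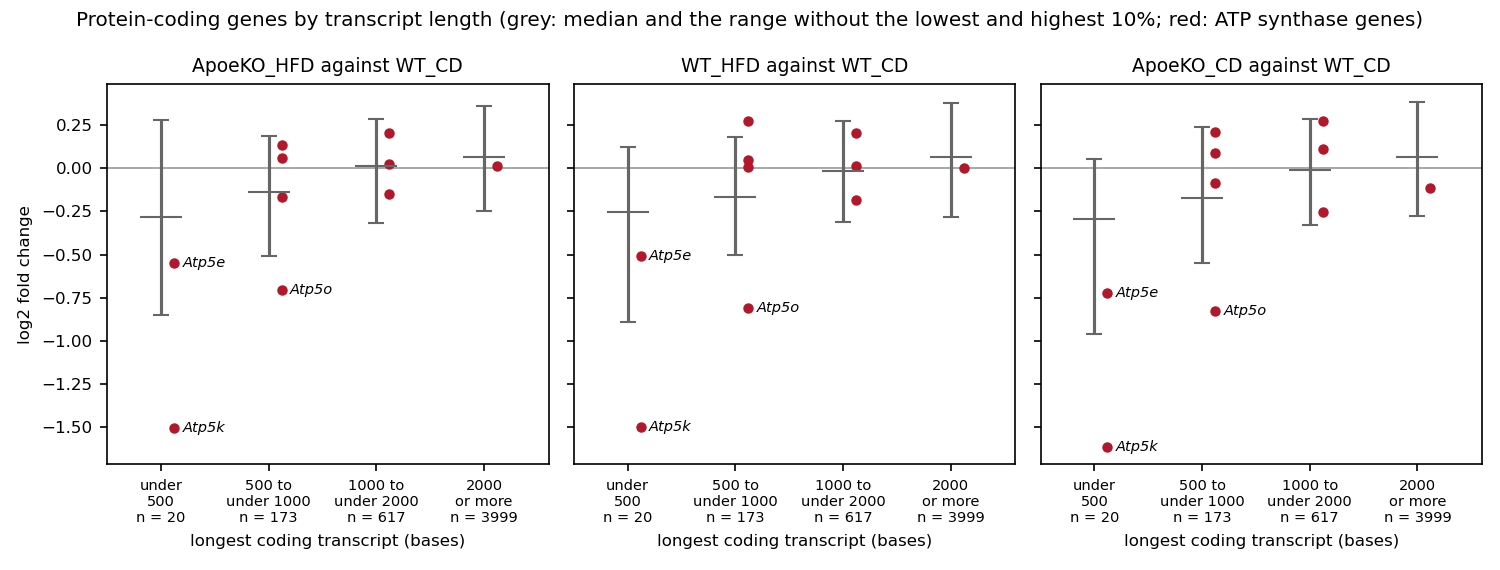
Log2 fold change against WT_CD (y axis) by length of the longest coding transcript (x axis, 4 classes with their number of genes) in 3 comparisons. Grey bars give the median with the range between the lowest and highest 10% of protein-coding genes and red points the 10 ATP synthase genes, of which Atp5k and Atp5o lie below the bar of their class. Atp5k was singled out by its level in WT_CD.

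The other genes of the complex gave no call. Of 8 further nuclear genes, none was called in any comparison by edgeR, DESeq2 or voom, and 1 had an unadjusted p under 0.05 in ApoeKO_CD against WT_CD by edgeR. Atp5g3, a gene of the proton-carrying c ring, had log2 fold changes of −0.42, −0.38 and −0.48 in ApoeKO_HFD, WT_HFD and ApoeKO_CD, and Atp5f1, subunit b of the peripheral stalk, had 0.08, 0.07 and 0.06. Usmg5, a small membrane subunit known for its part in dimers, had 0.14, 0.18 and 0.26. Atpif1, the inhibitor of the enzyme's reverse reaction, had −0.09, −0.02 and −0.06. The mitochondrially encoded subunit a (mt-Atp6) had 29.0 to 247 CPM in ApoeKO_HFD, 45.8 to 46.2 in WT_HFD, 40.9 to 60.0 in ApoeKO_CD and 105 to 311 in WT_CD. WT_HFD and ApoeKO_CD thus lay below all WT_CD libraries, while ApoeKO_HFD overlapped them. Its log2 fold changes were −0.61 ± 0.78 (SE) in ApoeKO_HFD, −1.92 ± 0.93 in WT_HFD and −1.76 ± 0.80 in ApoeKO_CD, with adjusted p-values of 0.77, 0.44 and 0.34 by edgeR, so none was called. The gene of mt-Atp6 overlaps mt-Atp8 on the same strand, so reads from the shared stretch may be missing. How many reads of either gene went uncounted, there or elsewhere, was not tested, so the values may not give their full level. For mt-Atp8 the log2 fold changes were 0.76 ± 0.45 (SE) in ApoeKO_HFD, −0.48 ± 0.51 in WT_HFD and −0.10 ± 0.45 in ApoeKO_CD. None of these was called, and mt-Atp8 did not share the sign of mt-Atp6 in ApoeKO_HFD.

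Genes that act with the complex also stayed without a call by edgeR, DESeq2 or voom: 6 assembly factors, 3 carriers that bring phosphate and exchange ADP for ATP, and 9 genes of cristae shape. At an unadjusted p under 0.05 by edgeR, the assembly factors had 2, 0 and 1 of 6 in ApoeKO_HFD, WT_HFD and ApoeKO_CD against WT_CD, the carriers 0 of 3 in each, and the cristae genes 0, 1 and 1 of 9. Of all genes tested, 14.2%, 12.9% and 15.9% had such a p. The cristae gene was Chchd6, a subunit of the MICOS complex at the crista junctions, with log2 fold changes of −0.34 ± 0.32 (SE) in ApoeKO_HFD, −0.83 ± 0.36 in WT_HFD and −0.85 ± 0.32 in ApoeKO_CD and adjusted p-values of 0.65, 0.35 and 0.21 by edgeR.

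The complex I list holds 38 nuclear genes taken by their Nduf symbols. Ndufa4 and Ndufa4l2 are among them, so not all need be complex I subunits. Of the 38, 2 were called lower in ApoeKO_CD against WT_CD by edgeR, where 0.508% of all genes were called. They were Ndufa1 (log2 fold change −0.89, adjusted p = 0.043 by edgeR) and Ndufv3 (−0.78, adjusted p = 0.039 by edgeR). Both are of the 10 genes most like Atp5k, a ranking that by construction holds genes higher in WT_CD, so nothing is read from that overlap. In ApoeKO_CD against WT_CD DESeq2 called 5 of the 38, these 2 among them, and voom called none. In ApoeKO_HFD and WT_HFD against WT_CD edgeR and voom called none of the 38, and DESeq2 called 3 and 2. DESeq2 called 1.31%, 1.2% and 3.52% of all genes with an adjusted p in ApoeKO_HFD, WT_HFD and ApoeKO_CD against WT_CD. At an unadjusted p under 0.05 by edgeR, 9, 6 and 11 of the 38 passed in the same order of groups. Of 24 tested genes of complexes III and IV edgeR called none in the comparisons with WT_CD, with 3, 1 and 3 at an unadjusted p under 0.05, and DESeq2 called Uqcrh in 2 of the 3.

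No gene overlaps Atp5k, and 3 tested genes lie within 50 kb. Pcgf3, the one with ample counts, averaged 17.1 ± 2.08 CPM in ApoeKO_HFD, 17.6 ± 0.143 in WT_HFD, 17.1 ± 4.11 in ApoeKO_CD and 16.6 ± 1.69 in WT_CD, with log2 fold changes of 0.04 to 0.09. Mfsd7a had log2 fold changes of −0.01 to 0.21. Pde6b, whose end lies 847 bases away on the opposite strand, had 2 to 23 counts per library. It averaged 0.146 ± 0.0946 CPM in ApoeKO_HFD, 0.122 ± 0.0170 in WT_HFD, 0.190 ± 0.108 in ApoeKO_CD and 0.571 ± 0.311 in WT_CD. Its log2 fold changes against WT_CD had the sign of those of Atp5k, at −1.92 ± 0.72 (SE), −2.18 ± 0.84 and −1.56 ± 0.71, with adjusted p-values of 0.25, 0.29 and 0.29 by edgeR. The only pseudogene named after Atp5k, Atp5k-ps2 on chromosome 2, held 23 counts in the 11 libraries together.

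The libraries carried the defining markers of cardiomyocytes throughout. The summed level of 10 cardiomyocyte markers was 40759 to 47854 CPM in ApoeKO_HFD, 41280 to 44524 in WT_HFD, 46384 to 48736 in ApoeKO_CD and 52051 to 54832 in WT_CD, so it too was highest in the 3 WT_CD libraries. Of the 10, Myh6 and Tnnt2 were higher in all 3 WT_CD libraries than in any other, as was so for 3.13% of all genes tested, and the other 8 overlapped. Myh6 makes up the largest part of the sum. In each comparison with WT_CD, 6 of the 10 had log2 fold changes below 0 and 4 above, and none was called by edgeR. Myh6, the most abundant, had 25121 to 29077 CPM in ApoeKO_HFD, 25614 to 26984 in WT_HFD, 29043 to 30333 in ApoeKO_CD and 31819 to 36486 in WT_CD. Pln went the other way in part, with 798 to 1050 CPM in ApoeKO_HFD, 836 to 1085 in WT_HFD, 873 to 1081 in ApoeKO_CD and 430 to 897 in WT_CD. The 6 atrial markers summed to 18.8 to 86.6 CPM in ApoeKO_HFD, 7.46 to 198 in WT_HFD, 109 to 129 in ApoeKO_CD and 75.4 to 135 in WT_CD. The 5 endothelial markers summed to 57.4 to 91.8 CPM in ApoeKO_HFD, 82.0 to 134 in WT_HFD, 49.2 to 66.3 in ApoeKO_CD and 51.4 to 122 in WT_CD. No marker of these lists was at 0 in every library of a group, and sums for fibroblasts, macrophages, pericytes and erythroid cells were at most 64.8 CPM in any library. The part of these marker levels in the Atp5k and Atp5o values was not tested, and fewer cells of a type and less RNA per cell cannot be told apart in such data.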

How the data were processed

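Per the labels, the Maxwell RSC simplyRNA kit served for RNA and the SMART-Seq Stranded kit, which keeps strand, for libraries. Per the submitters' processing notes, reads went through Trimmomatic 0.39, STAR 2.7a and HTSeq 0.13.5 on GRCm38 (mm10). The annotation release is not given in the sources used here. The deposited files hold the authors' whole-number counts per gene, with no normalization. Symbols and positions came from GENCODE vM21 on GRCm38, which named 55154 of 55335 identifiers.

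Counts were fitted with edgeR 4.0.16 (R 4.3.3): TMM factors (0.785 to 1.24), filterByExpr by group, 1 mean per group over 11 libraries, and the robust quasi-likelihood F test, with 7 residual degrees of freedom. The common biological coefficient of variation was 0.2. Two-sided p-values were adjusted by Benjamini-Hochberg over 16932 genes within each of 6 comparisons, and genes called under 0.05. CPM values are divided by TMM-scaled totals, except for Apoe, where they are plain CPM. Within-library ratios add 0.5 counts. The script was tested on simulated data.

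The labels do not say whether replicates are separate animals, and p-values then cover only the spread of libraries. Chi-square over degrees of freedom was 8.86 to 38.3 between replicates over nuclear genes, so none was the same library counted again. This does not show whether replicates came from separate animals. Named genes were the 10 members, called genes of the lists or otherwise the extremes of a list, the 10 genes most like Atp5k, of which 1 is not reported here, and tested genes within 50 kb of it. Some genes were instead named for their role, after their values were seen. The members and lists were chosen with earlier results of these data known. Alternatives used DESeq2 1.42.0 and limma 3.58.1 (voom), other scalings and filters, all 12 libraries, a replicate block and each library left out.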

Additional observations from a re-analysis of the deposited data

Results flagged for a closer look

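The interaction of Atp5k, the log2 fold change of ApoeKO_HFD against ApoeKO_CD (0.11) less that of WT_HFD against WT_CD (−1.50), was 1.61 with a standard error of 0.29. Atp5k was among the 0.219% of genes called for this contrast by edgeR. The contrast rests on the 3 WT_CD libraries, whose level of Atp5k singled the gene out, so the value is a description with no test. Without WT_CD replicate 3 it was 1.30. The Apoe counts contradict the chow labels, and with those labels exchanged the same 4 group means would give −1.62.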

How the results depend on the processing

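Of 1351 values recomputed for 69 results, 1280 kept their side of the threshold or stayed within the spread, and none of those with a call changed sign. The number of members called went to 0 with all 12 libraries in each comparison with WT_CD and in the interaction, and to 0 in WT_HFD against WT_CD with only the groups compared. It was 2 in ApoeKO_HFD and in WT_HFD against WT_CD with DESeq2 or with no filter, where Atp5o joined Atp5k. In ApoeKO_CD against WT_CD it was 1 with nuclear genes only, voom, only the groups compared or the replicate block, where Atp5o lost its call (adjusted p of 0.051, 0.071, 0.090 and 0.070 by edgeR or voom).

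Leaving out 1 library at a time gave 0 to 2 members in ApoeKO_HFD against WT_CD, 0 to 2 in WT_HFD against WT_CD, 1 to 3 in ApoeKO_CD against WT_CD, 0 to 2 in the interaction and 0 to 0 in the comparisons without WT_CD. In these fits Atp5k lost its adjusted p under 0.05 in ApoeKO_HFD without ApoeKO_HFD replicate 2 or 3, and in WT_HFD without WT_HFD replicate 1 or 2, where the lone library is assumed to vary like the others. The most members in each comparison with WT_CD came without WT_CD replicate 1. That fit called 24, 32 and 99 of all genes in ApoeKO_HFD, WT_HFD and ApoeKO_CD, beside 26, 35 and 86 with all 11 libraries. In ApoeKO_CD the 3 also came without WT_CD replicate 2, where 1801 of all genes were called. Without ApoeKO_HFD replicate 2 or 3, 0 of all genes were called in ApoeKO_HFD. The log2 fold change of Atp5k ran from −1.70 to −1.20 in ApoeKO_HFD, −1.64 to −1.19 in WT_HFD and −1.76 to −1.31 in ApoeKO_CD, the smallest sizes being those without WT_CD replicate 3. Its log2 ratio to the other members, less that in WT_CD, ran from −1.68 to −1.12, −1.68 to −1.12 and −1.76 to −1.21, and with all 12 libraries it was −0.40 in WT_HFD, where WT_HFD replicate 3 holds 23.4% of its nuclear counts on genes of the antisense class.

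The replicate numbers do not pair the libraries: of 15 pairs with the same number, 3 correlated above 0.1 (−0.413 to 0.318). With the replicate block, Atp5k had log2 fold changes of −1.48, −1.39 and −1.59 in ApoeKO_HFD, WT_HFD and ApoeKO_CD, and the members called in the interaction went to 0. Over all genes, called counts in ApoeKO_HFD, WT_HFD and ApoeKO_CD against WT_CD were 204, 168 and 434 by DESeq2 and 296, 272 and 475 with no filter. Depth limits little here, since no member had fewer than 564 counts in any of the 11 libraries. No interaction could be fitted with only the groups compared. The cause of these changes was not tested.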
